A study of Drosophila melanogaster with 12 samples.

Results

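The regions described here are places on the 4 major autosome arms where ORC2 was listed in 3rd instar larval fat body but not in the 2nd instar. ORC2 is a subunit of the origin recognition complex (ORC). They were chosen by position: a region of the mid-3rd or late-3rd instar list was taken when it lay more than 1 kb from every region of the 2nd instar list, and chosen regions within 1 kb of each other were joined into 1 site. This rule gave 464 first-listed sites, of 1889 later-stage sites on the arms. The other 1425, which were no more than 1 kb from a region listed in the 2nd instar, are called retained. Of the 464, 44 held a region in which peaks of both replicates of a stage had been merged. The other 420 held no such region, and 11 of them were in both later lists, with 1 replicate of each stage.

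Fat body was dissected by hand from wild-type OregonR larvae, and the testes were removed. The paper names male larvae for the 2nd and mid-3rd instar, and does not state the sex of the late-3rd instar larvae. The 2nd instar larvae were picked 67 to 68 h after egg laying, the mid-3rd instar larvae 91 to 92 h after egg laying, and the late-3rd instar larvae while wandering, with 60 to 120 larvae per stage. All were raised at the same temperature and fixed in 2% formaldehyde, no group carried a mutation or a treatment, and each stage had 2 biological replicates of ORC2 ChIP-seq and 2 input libraries. Chromatin immunoprecipitation gives no expression, so the dissected tissue could not be checked by the level of its markers.

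ORC binds DNA and loads the replicative helicase, which marks the places where replication can start. Fat body cells grow by the endocycle, a cell cycle of gap and S phases without division, and build up polyploid nuclei in which some of the genome stays underreplicated. In Drosophila, ORC is known to be found often at open chromatin near the starts of active genes. In the larval fat body, the last instar is the time when ecdysone rises and storage proteins are made for metamorphosis.

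The deposited lists say which replicate a peak came from but give no read counts or peak heights, so the depth of the libraries is unknown and the presence of a site in a list is all that can be compared. The 2nd instar list held 3630 regions on the arms, against 1674 at mid-3rd and 549 at late-3rd instar. A site missing from a list is a site without a called peak, and is not shown to lack ORC2. Intervals are 95% Wilson intervals, treat sites as independent and cover counting error only. Positions are those of Release 6.

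First-listed sites made up 24.6% of the later-stage sites (interval 22.7 to 26.6). The mid-3rd instar list held 353 of them, which was 21.2% of its 1664 sites, and the late-3rd instar list held 132, which was 24.3% of its 544 sites. Only 21 sites were in both lists. Those 21 were 5.95% of the mid-3rd instar and 15.9% of the late-3rd instar first-listed sites. Retained sites recurred more often: 298 were in both lists, or 22.7% and 72.3% of the retained sites of the 2 stages. The rule itself sorted sites by a call in another stage's list, so this contrast is given as a description.

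The libraries contributed very unequal numbers. Mid-3rd instar replicate 1 had 92 peaks at 74 first-listed sites, and replicate 2 had 338 peaks at 318 sites. Late-3rd instar replicate 1 had 98 peaks at 94 sites, and replicate 2 had 44 peaks at 44 sites. At first-listed and retained sites together, the 4 libraries had 745, 1618, 248 and 381 peaks, in this order. Mid-3rd instar replicate 2 thus held most of the sites, and the 2 late libraries did not fall on one side of the mid-3rd instar replicate 1. Libraries of the mid-3rd instar had a mean of 215 ± 174 peaks and those of the late-3rd instar 71.0 ± 38.2 (SD, n = 2 each). The exact permutation test between the stages, two-sided, had p = 0.667, where 2 libraries against 2 cannot go below 0.333. The rule admitted these sites through peaks of the same libraries, so the counts are a description and no conclusion is drawn from the test. Without mid-3rd instar replicate 2 the number of sites fell to 194, and the difference in peaks between the stages fell from 144 to 21.0. Leaving out 2nd instar replicate 1 raised the number to 698.

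Late-3rd instar replicate 1 stood apart. Of its sites, 41.2% were first-listed, against 11.3%, 21.5% and 12.1% in mid-3rd instar replicates 1 and 2 and late-3rd instar replicate 2. Of its 94 first-listed sites, 6 were also called in its partner replicate and 6 at mid-3rd instar. Late-3rd instar replicate 2 had 16 of its 44 first-listed sites, 36.4%, in the mid-3rd instar list. Without late-3rd instar replicate 1, 381 sites were left and 21.9% of later-stage sites were first-listed.

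Few first-listed sites were seen in both replicates of a stage: 9.48% (7.14 to 12.5), against 31.0% of retained sites (28.7 to 33.5). Among later-stage sites named by both replicates, 9.05% were first-listed. Leaving out 2nd instar replicate 2 raised the number named by both replicates from 44 to 85. Within a library, the share of sites also called in the partner was 52.7% for first-listed and 73.9% for retained sites in mid-3rd instar replicate 1, and 12.3% and 37.1% in replicate 2. In late-3rd instar replicate 1 it was 6.38% and 30.6%, and in replicate 2 it was 13.6% and 12.9%. The share was lower for first-listed sites in 3 of 4 libraries, the exception being late-3rd instar replicate 2. The partners share these pairs of calls, so no test was made. The rule sorted sites by a call in the 2nd instar list, so these shares too are given as a description.

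**Figure D1:**
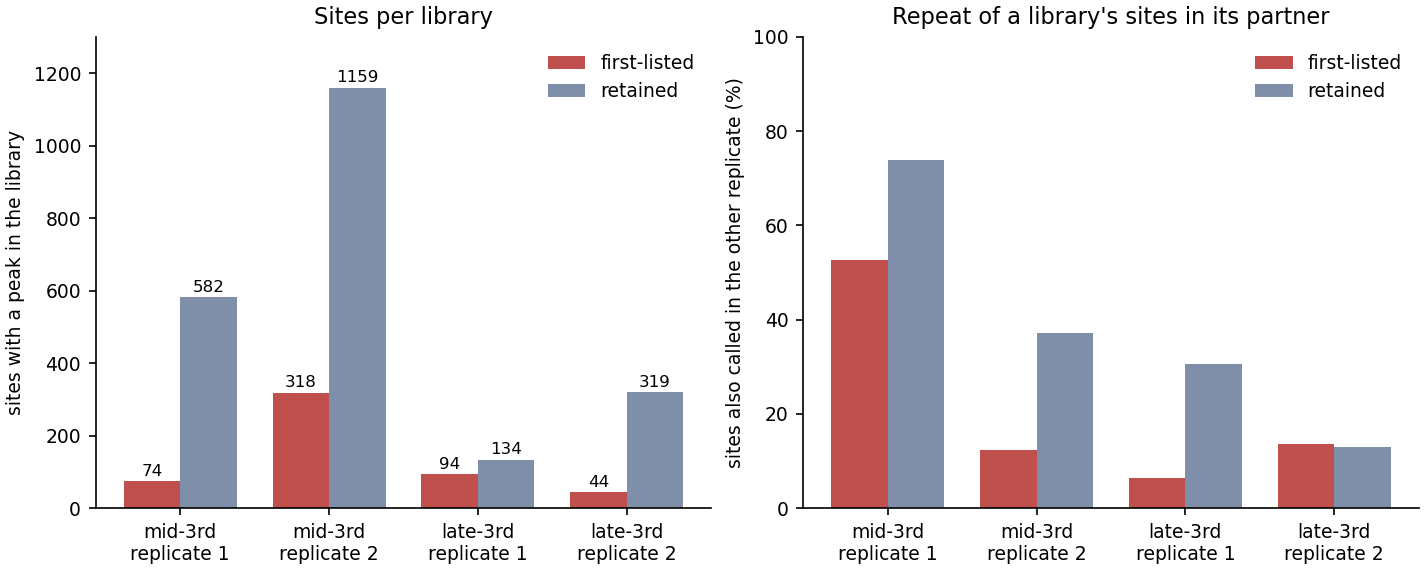
Left, the number of first-listed (red) and retained (grey-blue) sites with a peak in each of the 4 later-stage ORC2 libraries; right, the percentage of each library's sites that were also called in the other replicate of its stage. First-listed sites ranged from 44 to 318 per library, and late-3rd instar replicate 1 held nearly as many first-listed (94) as retained (134) sites.

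The distance of a site to the 2nd instar list was used by the rule, and is given as a description. It ran from 1034 to 215503 bp, with a median of 7414 bp. Of the 464 sites, 73 lay 1 to 2 kb from a 2nd instar region, 89 at 2 to 5 kb, 129 at 5 to 10 kb, 157 at 10 to 50 kb and 16 farther. The 3 regions just outside the limit were 1034, 1037 and 1040 bp from the 2nd instar list, and the 3 just within it, which count as retained, were 982, 999 and 1000 bp away. With a limit of 5 kb, 302 sites remained, and with 10 kb, 173.

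**Figure D2:**
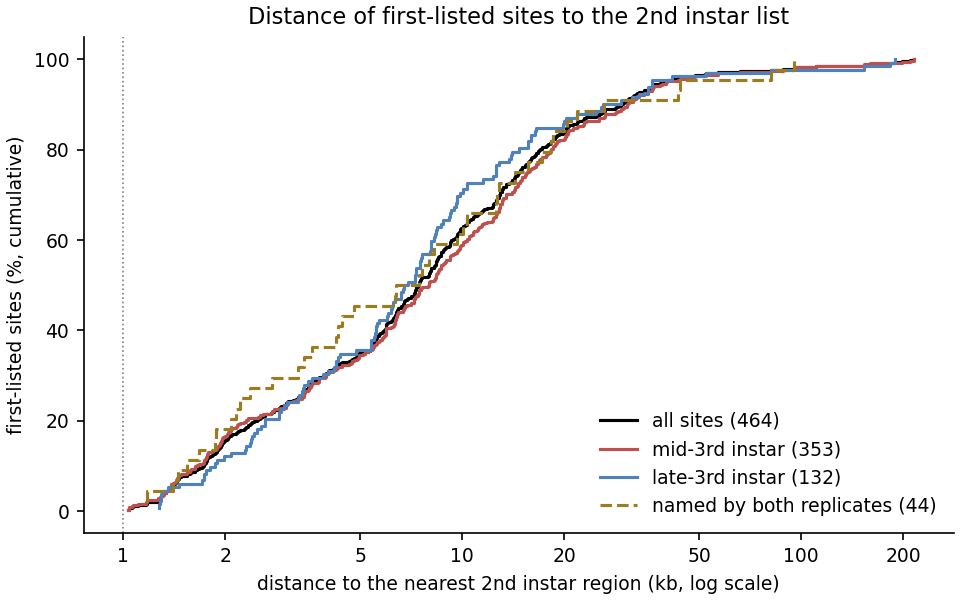
Cumulative percentage of first-listed sites by the distance to the nearest 2nd instar region, in kb on a log axis, for all 464 sites, the 353 listed at mid-3rd instar, the 132 listed at late-3rd instar and the 44 named by both replicates. The dotted line marks the 1 kb limit; the median of all sites was 7414 bp, and that of the sites named by both replicates was 6923 bp.

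Sites were found on every arm, with 122 on 2L, 116 on 2R, 93 on 3L and 133 on 3R. They were 20.8% of the later-stage sites on 3L and 27.4% of those on 3R, the lowest and highest of the 4 arms. Each arm was cut into 10 equal parts from its telomere. First-listed sites were 15.1% of the later-stage sites in the part next to the centromere (10.1 to 22.0) and between 19.5% and 31.7% in the other 9. The gaps between listed 2nd instar regions were used by the rule and are given as a description. Gaps of at least 100 kb were 7.1% of all gaps (258 of 3633), covered 44.7% of the bases of the arms and held 87 sites, 18.8% of the total. Of these 258 gaps, 72 held a site.

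The position of sites relative to genes was not used by the rule. The midpoint lay within 1 kb of an annotated gene end in 57.3% of first-listed sites (52.8 to 61.7) and 65.3% of retained sites (62.8 to 67.8), while 29.0% of the bases of the arms lie that close to a gene end. The gene table gives no strand, so starts and ends of genes cannot be told apart. By library, the share of first-listed against retained sites was 71.6% and 67.2% in mid-3rd instar replicate 1, 66.0% and 68.1% in mid-3rd instar replicate 2, 26.6% and 29.1% in late-3rd instar replicate 1, and 45.5% and 64.3% in late-3rd instar replicate 2. The difference averaged -4.73 ± 9.91 percentage points (SD, n = 4 libraries) and was negative in 3 of 4. An exact two-sided sign permutation over the libraries gave p = 0.5, with 0.125 the smallest p possible. The mean difference was thus smaller than its spread between libraries. Without late-3rd instar replicate 2 the mean difference was -0.04 points.

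In the pooled lists, first-listed sites lay near a gene end less often at late-3rd than at mid-3rd instar. At mid-3rd instar 66.9% were within 1 kb of a gene end, with a median distance of 223 bp, and at late-3rd instar 34.1% were, with a median distance of 3216 bp. Of the 111 sites listed at late-3rd instar only, 27.0% were near a gene end and 71.2% had their midpoint inside a protein-coding gene. Over libraries the mean share near a gene end was 68.8 ± 3.96% at mid-3rd and 36.1 ± 13.4% at late-3rd instar (SD, n = 2 each). Both late libraries were below both mid libraries, with p = 0.333 by exact permutation (two-sided), the smallest p it allows. Retained sites showed the same order, with 67.7 ± 0.636% and 46.7 ± 24.9% (exact two-sided permutation p = 0.333). The low late value rests in part on replicate 1, which had a peak at 94 of the 132 late first-listed sites. In that library 26.6% of first-listed and 29.1% of retained sites were near a gene end, close to the 29.0% of bases. In late-3rd instar replicate 2, 64.3% of retained sites were. Without replicate 1, 45.5% of 44 late first-listed sites were near a gene end, and 32.1% of the 28 listed at late-3rd instar only.

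**Figure D3:**
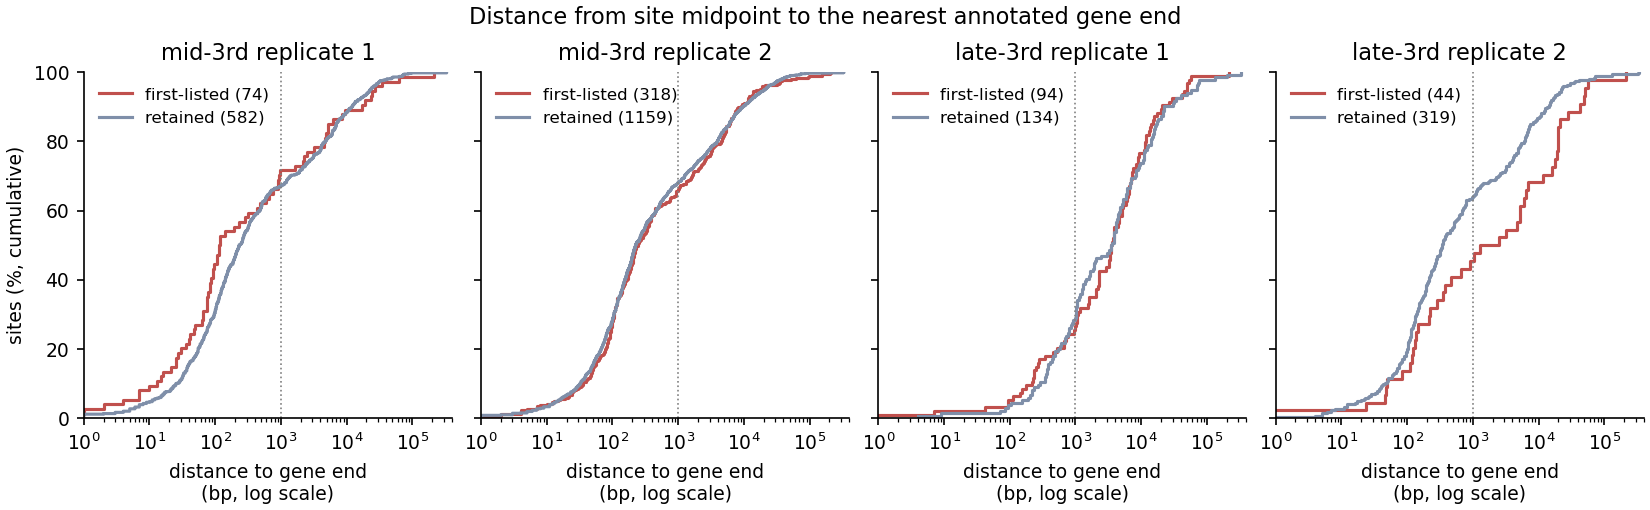
Cumulative percentage of sites by the distance from the site midpoint to the nearest annotated gene end, in bp on a log axis, for first-listed (red) and retained (grey-blue) sites of each later-stage library, with the number of sites in brackets; distances of 0 are drawn at 1 bp. At the dotted line, 1 kb, the 2 classes are close in mid-3rd instar replicates 1 and 2 and late-3rd instar replicate 1, and 45.5% against 64.3% in late-3rd instar replicate 2.

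The longest run of first-listed sites covered the 5S rRNA genes on 2R. The 5S rRNA is a small RNA of the large ribosomal subunit, made by RNA polymerase III from a tandem array of near-identical genes. The annotation places 96 genes and 4 pseudogenes from 19729562 to 19766278, a span of 36717 bp. No 2nd instar region touched any of the 100 copies. At mid-3rd instar, regions touched 70 of them, and at late-3rd instar 6.

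Mid-3rd instar had 9 regions over the array, merged from 24 peaks of replicate 1 and 11 of replicate 2, which covered 24273 bp. At late-3rd instar there were 3 regions, with 2 peaks of replicate 1 and 1 of replicate 2, covering 1800 bp. Joined across the stages they formed 8 sites, of which 5 were named by both replicates. The 4 widest of all 464 sites were among them. The widest ran from 19753689 to 19761009, 7321 bp, with 6 and 5 mid-3rd instar peaks in replicates 1 and 2, and held a high-confidence peak with an IDR of 0.0130. The IDR is the irreproducible discovery rate, the authors' measure of agreement between replicates, and their limit was 0.1. The next widest, 5789 bp from 19737817, had 4 and 3 mid-3rd instar peaks and 1 peak of late-3rd instar replicate 2, and its high-confidence peak had an IDR of 0.0695.

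Mid-3rd instar replicate 1 had more peaks in the array than replicate 2, although it had fewer first-listed peaks elsewhere. The array took 24 of the 92 first-listed peaks of replicate 1 and 11 of the 338 of replicate 2. Reads from near-identical copies cannot be assigned to one of them, so the position of a peak within the array is uncertain. The nearest 2nd instar region was 2215 bp from the array's first site. The fifth widest site, 2858 bp, lay inside nmo on 3L, which encodes the Nemo kinase, with 2 peaks in each mid-3rd instar replicate. It was 1542 bp from the 2nd instar list, and nmo also lay within 1 kb of a retained site.

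**Figure D4:**
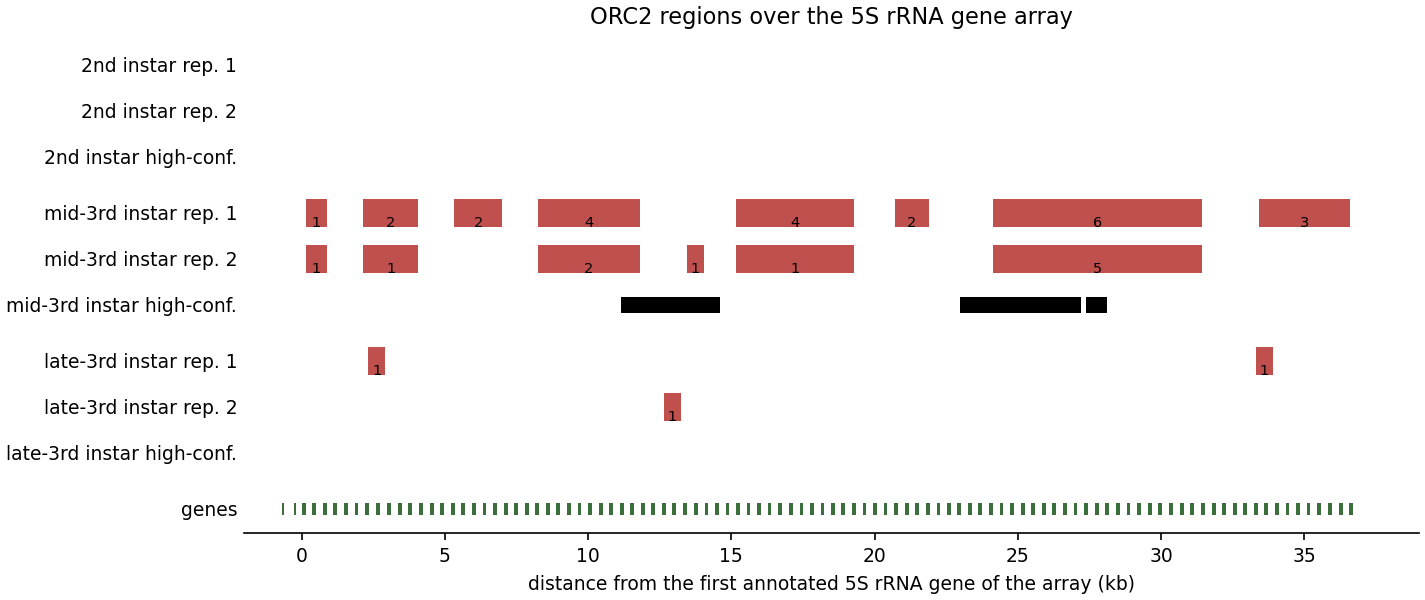
ORC2 regions over the 5S rRNA gene array by stage and replicate, against the distance in kb from the first annotated 5S gene; red boxes are first-listed regions, drawn at their merged width in each replicate that named them with its number of MACS2 peaks, black boxes are high-confidence peaks and green ticks are annotated genes. The 2nd instar rows are empty, the mid-3rd instar rows hold 24 and 11 peaks, and the late-3rd instar rows hold 2 and 1.

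A run of 6 first-listed sites on 2L, from 20176888 to 20198133, held no annotated gene. The nearest genes were CG10651, 41964 bp to one side, and lncRNA:CR40341, 49905 bp to the other. All 6 sites were listed at late-3rd instar and none at mid-3rd or 2nd instar. Late-3rd instar replicate 1 had a peak at each of the 6 and replicate 2 at 4. These 4 sites were 4 of the 6 late-3rd instar first-listed regions named by both replicates on all 4 arms. Each also overlapped a high-confidence late-3rd instar peak, with IDR values of 0.0104, 0.0715, 0.0264 and 0.0830 along the run. The arms held 28 high-confidence late-3rd instar peaks in all, and 5 of them overlapped a first-listed site.

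The fifth was inside Pzl on 3R, a gene of the Piezo family of mechanically gated channels that spans 2554162 to 3263582. The site, 2958459 to 2959770, was the only 1 of the 464 with a peak in all 4 later libraries, and its late-3rd instar IDR was 0.0907. It lay 81350 bp from the 2nd instar list, in a gap of 259546 bp, and 214314 bp from the nearest gene end. Elsewhere, Pzl also lay within 1 kb of a retained site. The remaining late-3rd instar site named by both replicates was inside spen, 178417 to 179117 on 2L, which encodes an RNA-binding transcriptional regulator. It was 2363 bp from the 2nd instar list, and spen also lay within 1 kb of a retained site.

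The small heat shock genes on 3L, which encode chaperones that hold unfolded proteins, had 3 first-listed sites between 9370737 and 9384085. The site from 9376983 to 9377662 overlapped Hsp26 (gene ID 39075) and lay 139 bp from Hsp67Ba, with 1 peak in each mid-3rd instar replicate. The site from 9383464 to 9384085 overlapped Hsp27 (gene ID 39078) and lay 698 bp from Hsp23, with 1 peak in each mid-3rd instar replicate and 1 in late-3rd instar replicate 2. The site 174 bp from Hsp67Bc had 1 peak of mid-3rd instar replicate 2. The Hsp67Bc, Hsp26 and Hsp27 sites were 1439, 3603 and 10084 bp from the 2nd instar list. The cluster was not free of ORC2 in the 2nd instar: a region named by both replicates lay over Hsp22, 9372776 to 9373379, and a mid-3rd instar region of replicate 2 next to it counted as retained. None of these sites overlapped a high-confidence peak.

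**Figure D5:**
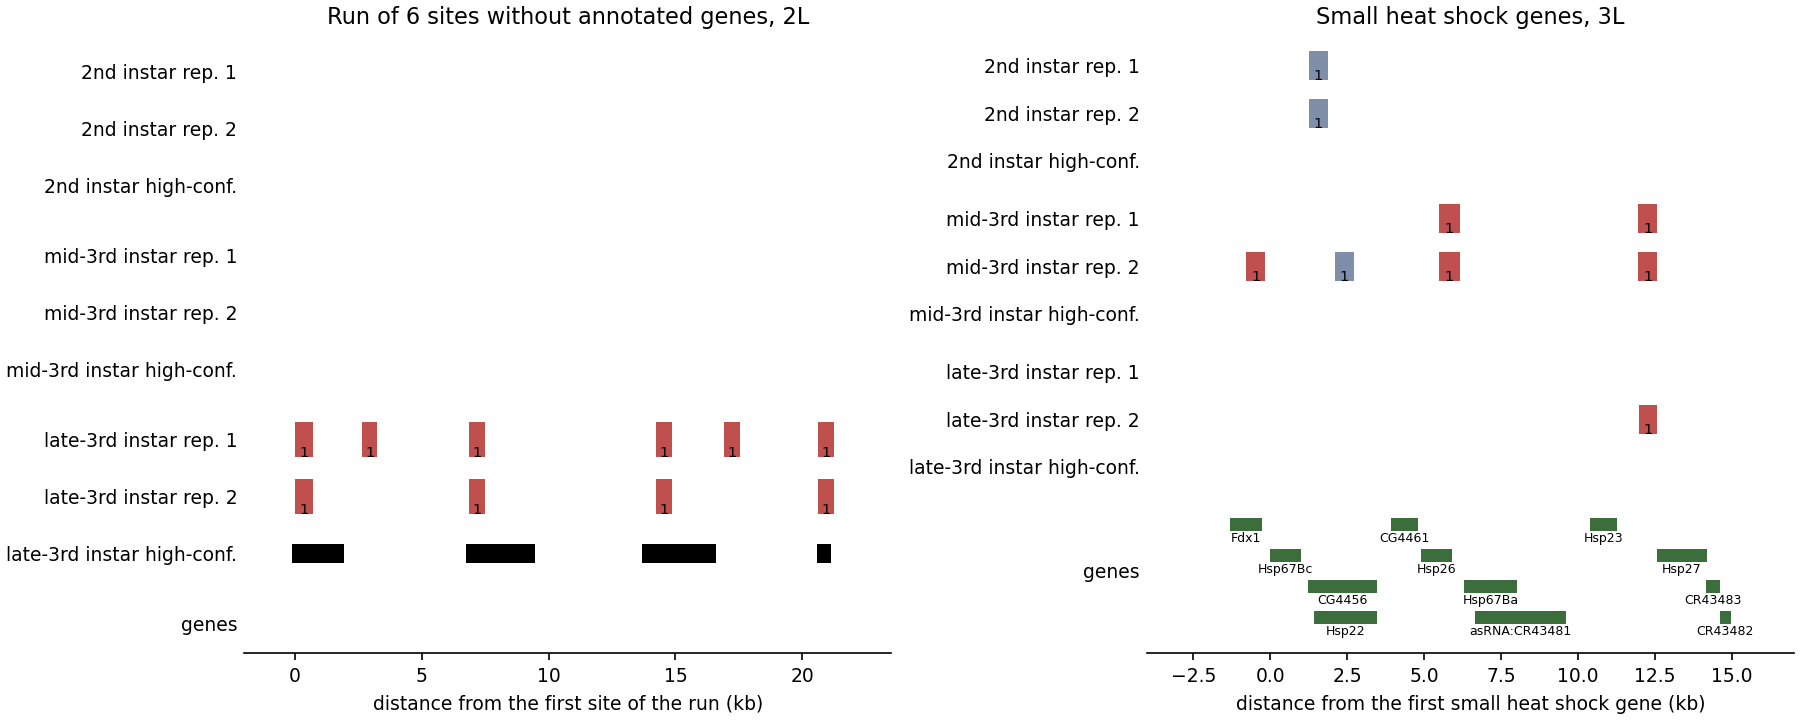
ORC2 regions by stage and replicate over the gene-free run on 2L, against the distance in kb from its first site, and over the small heat shock genes on 3L, against the distance in kb from the first of them; red boxes are first-listed regions, grey-blue boxes 2nd instar or retained regions, black boxes high-confidence peaks and green boxes annotated genes, and each number is the MACS2 peaks of that replicate. The run holds 6 and 4 late-3rd instar peaks and nothing at the other stages, and the heat shock genes hold first-listed sites in both mid-3rd instar replicates.

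High-confidence peaks overlapped 19 first-listed sites, 14 with mid-3rd and 5 with late-3rd instar peaks, and both replicates named all 19. These 14 mid-3rd instar sites held 15 of the 233 high-confidence peaks of that stage on the arms. After the 5S array, the lowest mid-3rd instar IDR, 0.0166, was at a 601 bp site from 6047660 on 2L. It overlapped CG34179, slmo and IPIP. The site at Srrm1 and CG17672 on 3L, 13036501 to 13037139, had an IDR of 0.0172, with 1 peak in each mid-3rd instar replicate and 1 in late-3rd instar replicate 2. Srrm1 encodes a splicing coactivator. Its site lay 12802 bp from the 2nd instar list, in a gap of 188413 bp.

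The other high-confidence mid-3rd instar sites each had 1 peak in each mid-3rd instar replicate. Mdh1, a malate dehydrogenase, was overlapped by a site from 10395756 to 10396526 on 2L with an IDR of 0.0241. Ald1, the glycolytic aldolase on 3R, had a site from 26261261 to 26261901 with an IDR of 0.0296, and the gene also lay within 1 kb of a retained site. That first-listed site was 1881 bp from the 2nd instar list. Dad, the inhibitory Smad of Dpp signalling, had a pair of neighbouring sites on 3R, both named by both replicates. The site from 17058892 to 17059509 had an IDR of 0.0426 and 1 peak in late-3rd instar replicate 2 as well, and the other ran from 17056043 to 17056933.

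The site at the U2 snRNA gene snRNA:U2:34ABa, 13211702 to 13212312 on 2L, had an IDR of 0.0779, and U2 snRNA is part of the spliceosome. Further sites were inside Tet (IDR of 0.0475), which encodes a dioxygenase of the TET family, inside Pdp1 (0.0717), a bZIP transcription factor of the circadian clock, and inside Drat (0.0536). Tet, Pdp1 and Drat also lay within 1 kb of a retained site. The first-listed sites in Tet, Pdp1 and Drat were 9632, 1168 and 3413 bp from the 2nd instar list. A site from 22561718 to 22562340 on 2R overlapped px and CG11362 (0.0856), and one from 14894234 to 14894875 on 3R overlapped CG14860 (0.0384). The site from 24463992 to 24464921 on 3L, in the part of the arm near the centromere, was 62801 bp from any gene end and had an IDR of 0.0684. First-listed high-confidence sites thus ranged from gene ends to stretches without genes: the distance from midpoint to gene end ran from 1 bp at Srrm1 to 214314 bp at Pzl.

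Of the 21 sites in both later lists, 10 were named by both replicates of a stage. Besides 2 sites of the 5S array and those at Pzl, Hsp27, Srrm1, Drat and Dad, they lay at Eno, which encodes the glycolytic enolase, at da, which encodes the bHLH protein Daughterless, and at 22678070 to 22678694 on 2R, 4687 bp from a gene end. The Eno site, 1727500 to 1728138 on 2L, was inside the gene, with 1 peak in each mid-3rd instar replicate and 1 in late-3rd instar replicate 2. The da site, 10387715 to 10388396, overlapped the end of the gene, lay 62 bp from mRpS7 and had the same libraries. Of these 10 sites, only the Pzl site had peaks in both late-3rd instar replicates. The 11 sites in both lists that rested on 1 replicate of each stage included Fbp2, Lsp2, EcR, TotA, a stress-induced humoral factor, and Rheb, the GTPase that activates TOR. Others of the 11 lay in the 5S array, at Cyp6w1, at pyd, at lncRNA:CR45336, and at Fib with serine transfer RNA genes.

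Of 14865 annotated genes on the arms, 792 lay within 1 kb of a first-listed site, or 5.33%, and 137 within 1 kb of one named by both replicates, or 0.922%. Within 1 kb of a retained site were 2241 genes, or 15.1%. Without mid-3rd instar replicate 2, 348 genes lay near a first-listed site, or 2.34%. Protein-coding genes, with 613 of 11645 or 5.26% near a first-listed site, were close to the share of all genes. Gene lists were read beside these shares without a test, since several genes of a list can share a site. All of the lists were chosen with earlier results of these data known, so their shares are given as a description.

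The 5S rRNA list stood farthest from the share of all genes: 96 of 96 were near a first-listed site and none near a retained one. Of these, 72 were near a site named by both replicates. Transfer RNA genes, also made by RNA polymerase III, did not show this: 11 of 266 were near a first-listed site, 4.14% against 5.33% of all genes. Without mid-3rd instar replicate 2, 5 of 266 were, 1.88% against 2.34% of all genes. Near a retained site were 92 of the 266, 34.6% against 15.1% of all genes. The histone genes were mostly the reverse of the 5S genes. All 111 lay within 1 kb of a retained site, and 3 also near one of 2 first-listed sites, or 1 without mid-3rd instar replicate 2.

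One of those histone sites shows a limit of the lists. The site from 21461076 to 21461675 on 2L, with 1 peak of mid-3rd instar replicate 2, was 1037 bp from the nearest region of the merged 2nd instar list, yet it overlapped a high-confidence 2nd instar peak with an IDR of 0.00277. It was the only first-listed site to overlap 1 of the 695 high-confidence 2nd instar peaks on the arms, and 1 more, near Ndae1, lay 926 bp from one.

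Among antimicrobial peptide genes, which fat body expresses in the immune response, 5 of 14 were near a first-listed site, 35.7% against 5.33% of all genes, and none was near a retained one. They were AttA and AttB, which share 1 site, AttC, CecC and Drs. The site of AttA and AttB was 1575 bp from the 2nd instar list. Those of CecC, Drs and AttC were 8347, 18263 and 36766 bp from it. None of the 4 sites was named by both replicates. Each rested on mid-3rd instar replicate 2, with 2 peaks at CecC and 1 at each of the others, so that none of the 5 genes was near a first-listed site without that library.

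The heat shock list had 11 of 16 genes near a retained site, 68.8% against 15.1% of all genes, and 6 near a first-listed site, 37.5% against 5.33%. Of these 6, 4 were near a site named by both replicates: Hsp23, Hsp26, Hsp27 and Hsp67Ba. Hsp67Bc and DnaJ-1, which encodes a cochaperone of the Hsp40 class, were near sites of mid-3rd instar replicate 2 alone. DnaJ-1 also lay within 1 kb of a retained site. Without mid-3rd instar replicate 2, 4 of 16 were near a first-listed site, 25.0% against 2.34% of all genes. With a limit of 5 kb to the 2nd instar list, 2 of 16 were, 12.5% against 3.72%.

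Of 7 genes for storage and other proteins of the late larval fat body, 2 were near a first-listed site, 28.6% against 5.33% of all genes. Lsp2, a larval serum protein on 3L, was overlapped by a site from 12129303 to 12129917, with 1 peak each in mid-3rd instar replicate 2 and late-3rd instar replicate 2, 8327 bp from the 2nd instar list, and by another from 12131051 to 12131650, with 1 peak of late-3rd instar replicate 2. Fbp2 on 2L was overlapped by a site from 9426431 to 9427902, with 2 peaks and 1 peak in the same libraries, 33117 bp from the 2nd instar list. Of the other 5 genes of the list, 3 were near a retained site only. Of 4 fat body markers on the arms, Lsp2 and srp, the GATA factor that specifies fat body, were near a first-listed site. Without mid-3rd instar replicate 2, 1 of the 4 was, and 1 of the 4 was near a retained site. Of 7 salivary gland, 6 testis and 5 haemocyte markers none was near a first-listed site, lists too short to set 0 apart from the 5.33% of all genes, and 0, 1 and 2 of them were near a retained site.

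Genes of the ecdysone response were near first-listed sites in 7 of 25 cases, 28.0% against 5.33% of all genes. Near retained sites were 9 of 25, 36.0% against 15.1% of all genes. Without mid-3rd instar replicate 2, 2 of 25 were near a first-listed site, 8.0% against 2.34% of all genes. EcR, the ecdysone receptor, had a site from 6089157 to 6089824 on 2R with 1 peak in mid-3rd instar replicate 1 and 1 in late-3rd instar replicate 1. The other 6 genes had only sites with 1 peak of 1 library: crol, Eip63E, ImpL2, Eip74EF and Hr96 of mid-3rd instar replicate 2, and Eip75B of late-3rd instar replicate 1. EcR, Eip74EF and Eip75B also lay within 1 kb of a retained site. None of the sites at these 7 genes was named by both replicates. They lay from 1285 bp (ImpL2) to 32003 bp (crol) from the 2nd instar list, with 1886 bp at Eip75B. The annotated spans of the 7 genes ran from 4117 bp at Hr96 to 113744 bp at Eip75B. The part of gene length in this count was not tested.

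Glycolysis genes were listed after the sites had been seen, so their count is no support for anything. Of 11 on the arms, 5 were near a first-listed site, 45.5% against 5.33% of all genes. They were Eno, Pgk, Gapdh1, Ald1 and Tpi, of which Eno and Ald1 were near a site named by both replicates. Without mid-3rd instar replicate 2, 2 of 11 were near a first-listed site, 18.2% against 2.34% of all genes. Near a retained site were 3 of 11, 27.3% against 15.1% of all genes, with Ald1 and Tpi among them. The Tpi site was 1067 bp from the 2nd instar list.

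The remaining lists were closer to the share of all genes. Cytoplasmic ribosomal protein genes had 7 of 77 near a first-listed site, 9.09%, each at a different site named by 1 replicate. Near a retained site were 27 of them, or 35.1%. Without mid-3rd instar replicate 2, 1 of 77 was near a first-listed site, 1.3% against 2.34% of all genes. Small nuclear RNA genes had 3 of 30, or 1 of 30 without mid-3rd instar replicate 2, and 16 near a retained site. Replication factors had 1 of 23, 4.35%, and 4, or 17.4%, near a retained site. The 1 was Mcm2, a subunit of the replicative helicase, with a site 116 bp away. Autophagy genes had 1 of 13, 7.69%, and 4, or 30.8%, near a retained site. The 1 was Atg1, the kinase that starts autophagy, with a site inside the gene. The Atg1 site was 1587 bp from the 2nd instar list, and Atg1 was among the 4 near a retained site.

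Of the 100 kb windows with a site, 223 held 1, 76 held 2 and 15 held 3. The densest window was that of the 5S array, with 9 sites, 5 of them named by both replicates. The next, on 2L from 6600001 to 6700000, held 7 sites with 1 peak each, 5 of mid-3rd instar replicate 2 and 2 of late-3rd instar replicate 1. A further 2 windows held 6: that of the gene-free run, and 2L from 2700001 to 2800000, where the sites lay at Hrs, Pgk, aph-1 and Syt1 and each had 1 peak of 1 library. At Nhe2, which encodes a sodium/proton exchanger, 4 sites between 21114409 and 21128167 on 2L all came from late-3rd instar replicate 1.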

How the data were processed

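Per the labels and the methods, ORC2 ChIP-seq and input libraries were made from larval fat body at 3 stages with 2 biological replicates each, 12 libraries in all. The submitters' processing notes name Bowtie2 and MACS2. According to the methods, the authors called peaks in each replicate against input at a q-value of 0.05 and deposited, for each stage, a list of merged regions of both replicates and a list of high-confidence peaks, whose score column holds the IDR (limit 0.1). The labels name dm3, but positions exceed it, so the lists were read as Release 6, and no coordinates were converted. No read counts or depths were given in the sources used here.

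Sites were built from the merged lists with a distance of 1 kb, counted as the bases between regions, on 2L, 2R, 3L and 3R. Genes are those of the RefSeq table of Release 6 used here, which has no strand. Sites named are those with a high-confidence peak (up to 20 by lowest IDR), those in both later lists and both replicates of a stage (up to 20 by merged peaks), the 5 widest and the 3 densest 100 kb windows, here 4 because of a tie. Genes named are up to 3 within 1 kb of those sites and the members of the gene lists within 1 kb of any site, except that ribosomal protein genes are given by their count only. Runs of sites less than 10 kb apart, the 11 sites in both lists that rested on 1 replicate of each stage, the histone and Ndae1 sites and the glycolysis list were described after their values were seen. The sites and all gene lists were chosen with earlier results of these data known. Tests were exact two-sided permutations over libraries. Other distances, gene sets, lists and each replicate left out were tried. The comparison of base composition was not run, because no genome was used here, and no sequence is shown for that reason. Functions were tested on simulated regions. Python 3.11.15, numpy 2.4.6, pandas 2.3.3 and matplotlib were used.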

Additional observations from a re-analysis of the deposited data

Results flagged for a closer look

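Chromosomes outside the 4 arms, which enter none of the comparisons, also held first-listed sites by the same rule. There were 125 on the X, 15 of them named by both replicates, which was 41.9% of the later-stage sites there (95% Wilson interval 36.5 to 47.6), against 24.6% on the 4 arms. The sex of the late-3rd instar larvae is not stated, so the number of X copies may differ between stages. Its part in this share was not tested. Chromosome 4 had 24 first-listed sites, 19.7% of its later-stage sites (13.6 to 27.6), none named by both replicates. The Y had 5 of 13, none named by both replicates.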

How the results depend on the processing

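The number of first-listed sites was 464, and was 302 and 173 with a distance of 5 and 10 kb to the 2nd instar list, 19 with the high-confidence later lists and 857 against 2nd instar regions named by both replicates. In that order of settings without the high-confidence lists, which name no replicate, the sites named by both replicates numbered 24, 17 and 107 instead of 44. All first-listed sites together were 30.8% of later-stage sites at a distance of 0 bp, 16.0% at 5 kb and 9.17% at 10 kb. They were 7.69% with the high-confidence lists and 45.3% against 2nd instar regions of both replicates. Among first-listed sites, the share near a gene end was 62.6% at 5 kb, 67.1% at 10 kb and 47.4% with the high-confidence lists. It was 51.7% and 63.4% with gene distances of 0.5 and 2 kb, and 52.4% with protein-coding genes only. Genes near a site numbered 343 at 10 kb, 58 with the high-confidence lists and 1313 against 2nd instar regions of both replicates, and the median distance to the 2nd instar list was 18179 bp at 10 kb, by the construction of that setting.

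Leaving out 1 replicate at a time gave 194 to 698 sites, 6 to 85 named by both replicates, 19.8% to 37.0% of later-stage sites, 46.9% to 64.3% near a gene end, 348 to 1149 genes, a median distance of 7230 to 9863 bp, and a mid minus late difference of 21.0 to 267 peaks per library. The 6 sites follow from a mid-3rd instar with only 1 replicate. Without the 5S and histone arrays, an alternative chosen after seeing the data, 454 sites were left, 38 of them named by both replicates, and 56.4% lay near a gene end. Settings for genes, distance and peaks were also added after seeing the data.

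No paired analysis was possible because no model is fitted across samples and the lists hold no values per library beyond the names of peaks. The comparison of base composition was not run. Depth is unknown, so a site missing from a list is not shown to lack ORC2. No test on 4 libraries passes 0.05. In the lists, the number of sites depends on mid-3rd instar replicate 2, and the late-3rd instar sites on replicate 1.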
